A study of Homo sapiens with 8 samples.

Results

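PPP1R15A and 9 partner genes of the eIF2alpha stress circuit were followed in PC3 cells, 10 genes of the 58735 in the deposited table. The 9 partners were taken by name for their place in the circuit: PPP1R15B, ATF4, ATF5, DDIT3, TRIB3, CHAC1, EIF2AK1, EIF2AK3 and EIF2AK4. PPP1R15A was taken because its level was among those most raised in the comparison described here, so its values are given as a description, with no test. PC3 is an established human prostate cancer line. Its poly(A) RNA was sequenced in 4 libraries titled siCtrl, with the genotype given as wild type, and 4 titled siPRMT7, with the genotype given as PRMT7 knockdown. Both groups received synthetic RNA by lipofection and were grown for 48 h afterwards. The library names of the same samples say sh where the titles say si, and the sources used here do not give the sequence of the knockdown reagent. Whether replicates are separate cultures is not stated, so each p measures the spread between these libraries, which may be technical.

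The circuit controls how often cells start making protein. Under stress, kinases of the EIF2AK family phosphorylate the alpha subunit of the initiation factor eIF2, which lowers protein synthesis in general while the mRNA of the transcription factor ATF4 is translated more. ATF4 and its partners switch on stress genes, among them DDIT3 (CHOP) and PPP1R15A (GADD34), and PPP1R15A guides protein phosphatase 1 (PP1) back to eIF2alpha to remove the phosphate and end the response. RNA levels show neither the phosphorylation of eIF2alpha nor the rate of translation.

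All 10 genes passed the filter for testing, a level of at least 1 FPKM (fragments per kilobase of gene length, scaled to library size) in at least 4 of the 8 libraries, as did 13436 genes in all. Libraries held 14526030 to 15724862 fragments. siPRMT7 replicate 2 stood apart: it lay at 28.4 on the first principal component, where the other 7 libraries lay between -11.9 and 7.36, and its ribosomal protein genes held 3.85% of all fragments, where the remaining libraries ranged from 2.90 to 3.38%. PRMT7, the targeted gene, averaged 5.11 ± 0.183 FPKM with siCtrl and 4.69 ± 0.298 FPKM with siPRMT7 (SD, n = 4 each), a ratio of 0.917. The two-sided exact permutation test did not separate the groups (p = 0.0571, where 0.0286 is the smallest possible), and 239 of its 9458 exonic bases are shared with SMPD3 on the opposite strand. The groups are therefore named by their labels throughout. Of 6 markers of an epithelial prostate line 5 were expressed, CDH1 being the exception, and KLK2 and KLK3 were at 0 in every library. None of 4 leukocyte markers passed the filter (0 of 4), and neither the summed endothelial level (2.84 to 3.64 FPKM) nor the summed fibroblast level (8.27 to 9.87 FPKM) separated the groups. The measurements are of whole cultures, in which fewer expressing cells and less RNA per cell cannot be told apart.

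Within the circuit, PPP1R15A had the largest difference between the groups, followed by DDIT3 and ATF4, and the kinases EIF2AK1 and EIF2AK4 had the lowest. Differences in this text are of log2(FPKM + 1), siPRMT7 minus siCtrl, a scale that understates the change of low genes. Of the 9 partners 6 were higher and 3 lower in siPRMT7 libraries, where 49.5% of all genes tested were higher, and their median log2 difference was 0.0095, against -0.0015 over all genes tested. At an adjusted p under 0.05 (limma, Benjamini-Hochberg over all genes tested), 0 of the 9 partners were called, where 0.0149% of all genes tested were called, namely RSAD2 and RNU7-140P. RNU7-140P, annotated as a small nuclear RNA, averaged 0 FPKM with siCtrl and 1.11 ± 0.028 FPKM with siPRMT7. That level lies barely above the filter of 1 FPKM, so its call is uncertain. At an unadjusted p under 0.05, 2 of the 9 partners passed, DDIT3 and ATF4, where 13.2% of all genes did. The groups did not overlap for 1 of the 9 partners, ATF4, which was higher, where 8.57% of all genes did not overlap in either direction, 4.14% with siPRMT7 higher and 4.43% with siPRMT7 lower.

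**Figure D1:**
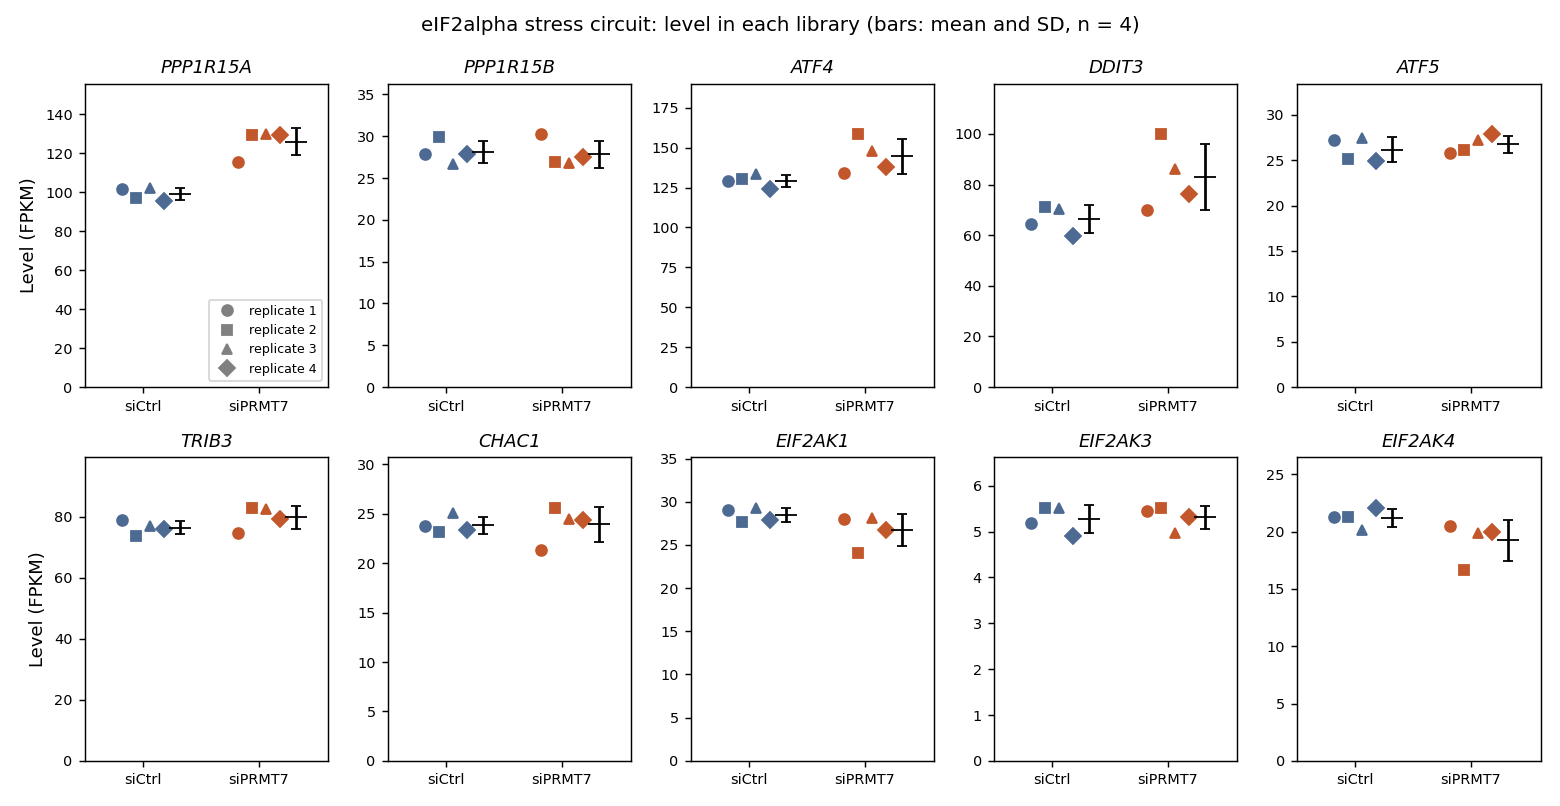
Level (FPKM, each axis from 0) of the 10 circuit genes in each library, with siCtrl on the left and siPRMT7 on the right of each panel, symbols for the replicate number, and bars for the mean and SD (n = 4). All siPRMT7 libraries lie above all siCtrl libraries for PPP1R15A and ATF4, whereas PPP1R15B, ATF5, CHAC1 and EIF2AK3 overlap between the groups.

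PPP1R15A (ENSG00000087074) lies on chromosome 19, 48872392 to 48876057, plus strand, of GRCh38, and shares no exonic base with another gene of GENCODE release 29. It had 101 FPKM in siCtrl replicate 1, 96.8 in replicate 2, 102 in replicate 3 and 95.7 in replicate 4. In siPRMT7 replicates 1 to 4 it had 116, 129, 130 and 129 FPKM. Every siPRMT7 library thus lay above every siCtrl library. Replicate 1 was the lowest of its group, and the other 3 siPRMT7 libraries were within 1 FPKM of each other. The group means were 98.96 ± 3.21 and 126 ± 6.90 FPKM (SD, n = 4 each), a ratio of 1.27 and a log2 difference of 0.34. Without siPRMT7 replicate 2 the ratio was 1.26. The gene received 4292 to 6023 fragments in each library, which limits counting error to 1.53% or less.

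The difference that led to the choice of PPP1R15A placed it 296th of 13436 genes by log2 difference and 70th of the 10934 protein-coding ones. Among the 765 genes with a mean of at least 50 FPKM in both groups it was 14th. No cut value bounds this choice, so its neighbours in the order are given with their log2 differences and no test. Just above it stood AL050341.2 (0.34), HERC5 (0.34), an interferon-induced ligase for ISG15, and AP001458.1 (0.34). Just below it stood AP000769.1 (0.34), AL360181.2 (0.34) and DNPH1 (0.34), an enzyme that cleaves nucleoside monophosphates. Of these 6, HERC5 and DNPH1 are the protein-coding genes, with siCtrl means of 10.8 and 12.2 FPKM, so PPP1R15A had a much higher level than the genes with a difference of the same size.

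The sequence before the PPP1R15A start is shown because ATF4 and related bZIP factors bind elements of the kind it contains. RefSeq promoter windows (GRCh38.p14, 250 bases before to 50 after the start) were found for 9 of the 10 genes, in 15 windows. They were searched on both strands for the cAMP response element TGACGTCA, for its shorter core TGACG, which lies within it, and for TGATGNAA, a form of the C/EBP-ATF composite element through which ATF4 acts. The stretch printed ends where the PPP1R15A gene of GENCODE begins, chr19:48872171-48872391, plus strand, with matches to the first 2 motifs in capitals.
PPP1R15A: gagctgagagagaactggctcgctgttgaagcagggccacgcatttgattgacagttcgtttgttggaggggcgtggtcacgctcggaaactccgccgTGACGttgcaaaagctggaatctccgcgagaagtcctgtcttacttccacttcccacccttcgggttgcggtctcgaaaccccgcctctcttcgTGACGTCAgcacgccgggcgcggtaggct
PPP1R15A was the 1 gene of the 9 whose window held TGACGTCA, from 48872363 to 48872370, which 1.85% of all 35116 windows held. A separate TGACG stands at 48872269 to 48872273. The core TGACG was found for 4 of the 9 genes, PPP1R15A, PPP1R15B, ATF4 and ATF5, and in 24.6% of all windows. For each motif a gene was counted if any of its windows matched, so counts of genes and shares of windows are not on the same scale. The composite TGATGNAA was found for 2 of the 9, PPP1R15B and CHAC1, and in 3.62% of all windows. Both of these sites are printed in their 30-base surroundings, with the match in capitals, from chr1:204412026-204412055, minus strand, and chr15:40953251-40953280, plus strand.
PPP1R15B: cccgccccggcTGATGCAAcctcacgctgc
CHAC1: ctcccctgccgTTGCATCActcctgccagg
The CHAC1 match lies on the other strand, before the RefSeq start but inside an exon of the longer GENCODE gene. The TGACG matches of ATF4 likewise lie before its RefSeq starts but inside an exon of its GENCODE gene. Neither PPP1R15B nor CHAC1 differed between the groups beyond the spread of the libraries, as their values below show. These matches describe letters in a window and say nothing of binding in these cells.

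Among 7120 other protein-coding genes with a mean of at least 5 FPKM, the 5 whose log2(FPKM + 1) followed PPP1R15A most closely over the 8 libraries were RHOT2 (Pearson r = 0.996), PPP1R12C (0.990), TXNIP (0.989), HIST2H2BE (0.986) and C19orf66 (0.976). RHOT2 encodes a mitochondrial GTPase, PPP1R12C another regulatory subunit of PP1, and TXNIP an inhibitor of thioredoxin. RHOT2 had 8.86 to 9.23 FPKM with siCtrl and 9.91 to 10.5 FPKM with siPRMT7, with replicate 1 lowest in the latter group. PPP1R12C had 15.8 to 16.7 and 18.2 to 19.99 FPKM, also with siPRMT7 replicate 1 lowest of its group. All 5 were alike in a step between the groups, and that step is part of each r. After each group's mean was subtracted, r was 0.963 for RHOT2, 0.895 for PPP1R12C, 0.922 for TXNIP, 0.859 for HIST2H2BE and 0.837 for C19orf66. These genes were picked from many over libraries of one experiment, and no test is attached. HIST2H2BE belongs to a family of near-identical copies, so its value is uncertain.

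PPP1R15B (ENSG00000158615, chromosome 1, 204403387 to 204411791, minus strand) encodes the constitutive partner of PPP1R15A, which keeps eIF2alpha phosphorylation low in unstressed cells. Its siCtrl libraries had 27.8, 29.96, 26.7 and 27.9 FPKM in the order of the replicate numbers. The siPRMT7 libraries had 30.2, 26.9, 26.7 and 27.5 FPKM. The 2 groups overlapped over most of their range, and the log2 difference was -0.013, with a 95% limma interval from -0.13 to 0.11 and an adjusted p of 0.922 (limma). The direction was the opposite without siCtrl replicate 2 (0.017) and without siPRMT7 replicate 2 (0.0028) or 3 (0.0050). The ratio of PPP1R15A to PPP1R15B, which both scale with gene length and can be set side by side in FPKM, was 3.23 to 3.82 in siCtrl and 3.82 to 4.85 in siPRMT7 libraries. Its mean was 3.53 ± 0.254 and 4.54 ± 0.485 (SD, n = 4 each). The lowest siPRMT7 ratio, in replicate 1, lay barely above the highest siCtrl ratio. Because PPP1R15A was chosen for its difference, this ratio is a description as well.

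The genes of PP1 itself were divided. Of 10 PP1 catalytic subunits and cofactors 6 were higher and 4 lower, where 49.5% of all genes tested were higher. Of the 10 genes 0 were called, where 0.0149% of all genes were. The median log2 difference was 0.010. That direction turned to lower on the TPM scale (FPKM rescaled to the same sum in every library), with quantile normalization, with library weights (-0.018) and without siPRMT7 replicate 2 (-0.036). It also did so with a ribosomal protein covariate chosen after the data were seen (-0.046). On the TPM scale the median of all genes was -0.041, against -0.0015 as reported. PPP1CA, a catalytic subunit, averaged 64.3 ± 2.95 FPKM with siCtrl and 68.9 ± 6.96 FPKM with siPRMT7. PPP1CB, another catalytic subunit, had 42.3 ± 2.72 and 43.6 ± 4.74 FPKM. ACTG1, an actin whose free form joins the PPP1R15-PP1 complex, had 667 ± 12.2 and 647 ± 37.4 FPKM. The largest difference in the list was that of PPP1R7, an ancient PP1 regulator, with 3.61 ± 0.303 and 4.31 ± 0.335 FPKM and an adjusted p of 0.288 (limma). The PP1 inhibitors PPP1R11 and PPP1R2 differed by 0.042 and -0.028 on the log2 scale.

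Of the 3 transcription factors, ATF4 and DDIT3 were higher in siPRMT7 libraries without passing the test, and ATF5 was level. ATF4 (ENSG00000128272, chromosome 22, 39519695 to 39522685, plus strand) encodes the central activator of the integrated stress response and is regulated mainly in translation. In siCtrl replicates 1 to 4 it had 129, 130, 134 and 124 FPKM. The siPRMT7 libraries had 134, 158, 148 and 138 FPKM in the same order. The groups did not overlap, but siPRMT7 replicate 1 lay only just above the highest siCtrl library, and replicate 2 was the highest of all. The log2 difference was 0.16 (SE 0.058) and the adjusted p 0.310 (limma), and the ratio of means was 1.12, or 1.08 without siPRMT7 replicate 2.

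DDIT3 (ENSG00000175197, chromosome 12, 57516588 to 57521737, minus strand) encodes CHOP, which acts downstream of ATF4 and promotes cell death when stress lasts. Its siCtrl libraries had 64.5, 71.1, 70.4 and 59.5 FPKM. The siPRMT7 libraries had 69.9, 99.9, 86.2 and 76.4 FPKM. Replicates 2, 3 and 4 of siPRMT7 lay above every siCtrl library, while replicate 1 lay within the siCtrl range. The means were 66.4 ± 5.46 and 83.1 ± 13.0 FPKM (SD, n = 4 each), with a log2 difference of 0.31 (SE 0.11) and an adjusted p of 0.291 (limma). DDIT3 had the widest spread of the 10 genes in both groups, 8.22% of the mean in siCtrl and 15.7% in siPRMT7 libraries, against a counting error of 2.98% at the lowest. The ratio of 1.25 was 1.17 without siPRMT7 replicate 2. Of its 1307 exonic bases 413 are shared with genes on the opposite strand, mainly MARS, and 105 with AC022506.1 on the same strand, and the sources used here do not say if fragments were counted by strand.

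ATF5 (ENSG00000169136, chromosome 19, 49928702 to 49933935, plus strand), a relative of ATF4 that supports the mitochondrial stress response, had 27.2, 25.1, 27.4 and 24.9 FPKM in siCtrl libraries. The siPRMT7 libraries had 25.8, 26.1, 27.2 and 27.9 FPKM. The 2 groups overlapped, and the log2 difference was 0.033 (95% limma interval -0.076 to 0.14), a direction that turned to lower on the TPM scale and with quantile normalization. Of its 2954 exonic bases 626 are shared with NUP62 on the opposite strand.

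The downstream targets TRIB3 and CHAC1 overlapped between the groups. TRIB3 (ENSG00000101255, chromosome 20, 362835 to 397559, plus strand) encodes a pseudokinase that restrains ATF4 and CHOP. Its siCtrl libraries had 78.8, 73.7, 77.0 and 76.1 FPKM, and its siPRMT7 libraries 74.9, 83.0, 82.7 and 79.3 FPKM. Replicate 1 of siPRMT7 lay within the siCtrl range and the other 3 above it, and the adjusted p was 0.546 (limma, log2 difference 0.063). The TRIB3 difference turned to lower with quantile normalization. CHAC1 (ENSG00000128965, chromosome 15, 40952962 to 40956519, plus strand) encodes an enzyme that degrades glutathione and is a sensitive readout of ATF4 activity. With siCtrl it had 23.8, 23.2, 25.1 and 23.4 FPKM, and with siPRMT7 21.4, 25.6, 24.5 and 24.3 FPKM. The lowest and the highest of these 8 CHAC1 values were both siPRMT7 libraries. The log2 difference was 0.0033, with a 95% limma interval from -0.13 to 0.13, and it turned to lower on the TPM scale, with quantile normalization and without siPRMT7 replicate 2 (-0.028), 3 (-0.0076) or 4 (-0.0050) or siCtrl replicate 2 (-0.0100) or 4 (-0.0055).

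**Figure D2:**
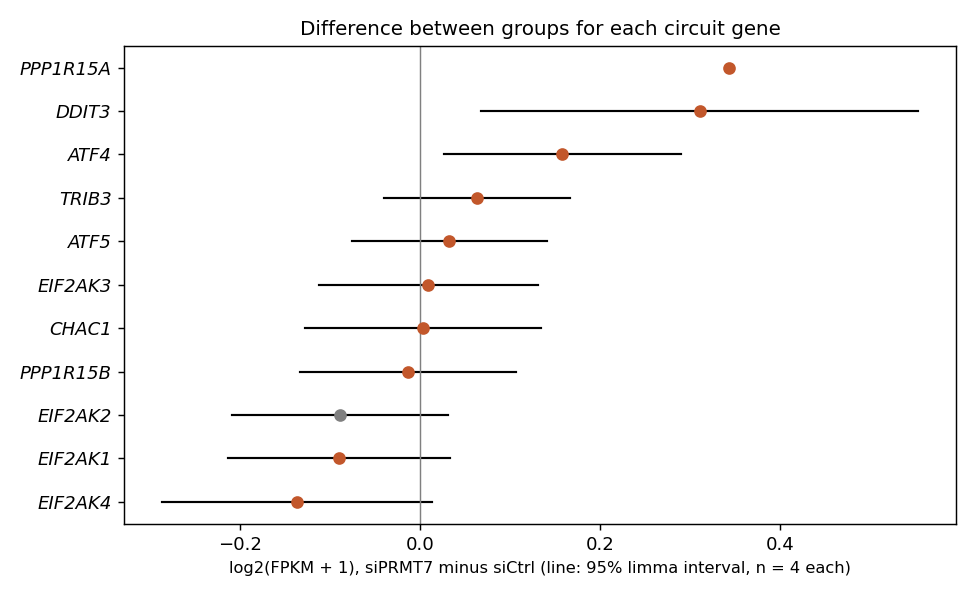
Difference in log2(FPKM + 1), siPRMT7 minus siCtrl, of each circuit gene and of EIF2AK2 (grey), with 95% limma intervals as lines (n = 4 each). PPP1R15A, chosen for its difference, is drawn as a point without an interval at 0.34, and the intervals of 8 of the other 10 genes include 0, all but those of DDIT3 and ATF4.

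Of the kinases that start the response, GCN2 and HRI were lower and PERK nearly equal in the group means, and none passed the test. EIF2AK4 (ENSG00000128829, chromosome 15, 39934146 to 40035591, plus strand) encodes GCN2, which senses uncharged tRNA. The siCtrl libraries had 21.2, 21.3, 20.1 and 22.1 FPKM, and the siPRMT7 libraries 20.5, 16.6, 19.8 and 19.96 FPKM. Replicates 2, 3 and 4 of siPRMT7 lay below every siCtrl library, replicate 2 by the most. The log2 difference was -0.14 (SE 0.066, adjusted p = 0.409, limma), and -0.072 without siPRMT7 replicate 2. EIF2AK1 (ENSG00000086232, chromosome 7, 6022244 to 6059230, minus strand) encodes HRI, which senses haem shortage and relays mitochondrial stress. Its levels with siCtrl were 29.02, 27.7, 29.3 and 27.9 FPKM, and with siPRMT7 they were 28.0, 24.1, 28.2 and 26.7 FPKM. The 2 groups overlapped (log2 difference -0.090, adjusted p = 0.489, limma), and the difference was -0.042 without siPRMT7 replicate 2. Of the 5550 exonic bases of EIF2AK1, 532 overlap AIMP2, which is transcribed from the opposite strand.

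EIF2AK3 (ENSG00000172071, chromosome 2, 88556741 to 88627576, minus strand) encodes PERK, the kinase of the endoplasmic reticulum. Its siCtrl libraries had 5.18, 5.51, 5.52 and 4.90 FPKM, and its siPRMT7 libraries 5.46, 5.51, 4.96 and 5.33 FPKM. These ranges coincided, with a log2 difference of 0.0095 and an interval from -0.11 to 0.13. That direction turned to lower without siPRMT7 replicate 1 (-0.0014) or 2 (-0.0056) or siCtrl replicate 4 (-0.020), and also on the TPM scale. With 386 to 479 fragments per library, EIF2AK3 had the largest counting error of the 10 genes, 5.09% at the lowest. Antisense genes share 819 of its 5434 exonic bases. EIF2AK2, the RNA-sensing kinase PKR, which was not chosen with the 10 genes, had 21.2, 21.0, 20.6 and 20.9 FPKM with siCtrl and 21.7, 18.2, 19.4 and 19.4 FPKM with siPRMT7. It was below every siCtrl library in 3 siPRMT7 libraries and above them all in replicate 1 (log2 difference -0.089, adjusted p = 0.481, limma).

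Set side by side per length, HRI made up the largest share of the summed level of the 4 kinases, 37.5 ± 0.970% with siCtrl and 37.7 ± 0.840% with siPRMT7 (SD, n = 4 each). PKR took 27.6 ± 0.214% and 27.7 ± 0.882%, and GCN2 27.9 ± 1.05% and 27.1 ± 0.902%. PERK took 6.96 ± 0.415% and 7.53 ± 0.737%. The ranges of all 4 shares overlapped between the groups. The summed level was 75.5 to 76.7 FPKM in siCtrl libraries, 75.6 FPKM in siPRMT7 replicate 1, and 64.4, 72.4 and 71.4 FPKM in siPRMT7 replicates 2, 3 and 4.

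In siCtrl libraries the order of levels in FPKM was ATF4, PPP1R15A, TRIB3, DDIT3, EIF2AK1, PPP1R15B, ATF5, CHAC1, EIF2AK4 and EIF2AK3. The first 4 did not overlap with their neighbours in this order, from 129 FPKM for ATF4 to 66.4 FPKM for DDIT3. EIF2AK1 overlapped with PPP1R15B, PPP1R15B with ATF5 and ATF5 with CHAC1, at means from 28.5 to 23.8 FPKM, and CHAC1 did not overlap with EIF2AK4. PERK stood last at 5.28 FPKM, apart from GCN2 at 21.2 FPKM.

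Within the siPRMT7 group, ATF4 and DDIT3 were ordered like the share of ribosomal protein genes. That share was 2.90, 3.85, 3.38 and 3.11% in siPRMT7 replicates 1 to 4, and both genes were lowest in replicate 1 and then higher in replicates 4, 3 and 2. Relative to the siCtrl mean, DDIT3 was 0.077, 0.59, 0.38 and 0.20 higher on the log2 scale in replicates 1 to 4, and ATF4 was 0.052, 0.29, 0.19 and 0.096 higher. EIF2AK4 ran the other way, at -0.044, -0.33, -0.090 and -0.081. PPP1R15A was at 0.22 in replicate 1 and 0.38, 0.39 and 0.38 in replicates 2, 3 and 4. TRIB3 (-0.029, 0.12, 0.11 and 0.053) and CHAC1 (-0.15, 0.099, 0.036 and 0.028) had the same order of replicates as ATF4. In the 4 siCtrl libraries, whose ribosomal protein share was 2.95 to 3.18%, PPP1R15A stayed between -0.048 and 0.044, and ATF4 between -0.058 and 0.047. Within siCtrl, Pearson's r with that share was 0.66 for PPP1R15A, 0.71 for ATF4, 0.46 for DDIT3 and -0.90 for EIF2AK4. For the remaining circuit genes it ran from -0.73 (PPP1R15B) to 0.97 (CHAC1). Over the 8 libraries Pearson's r with that share was 0.92 for ATF4, 0.90 for DDIT3, -0.94 for EIF2AK4 and 0.64 for PPP1R15A. It was 0.82 for TRIB3, 0.75 for CHAC1, -0.75 for EIF2AK1, -0.65 for PPP1R15B, 0.21 for ATF5 and 0.17 for EIF2AK3. These values describe libraries of 1 experiment in which replicate 2 lies far out. With the ribosomal protein level of each library as a covariate, an alternative chosen after the data were seen, the log2 difference was 0.17 for DDIT3, 0.087 for ATF4, -0.053 for EIF2AK4 and 0.30 for PPP1R15A. Whether that share accounts for any of these differences, and what else differed between these libraries, was not tested.

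**Figure D3:**
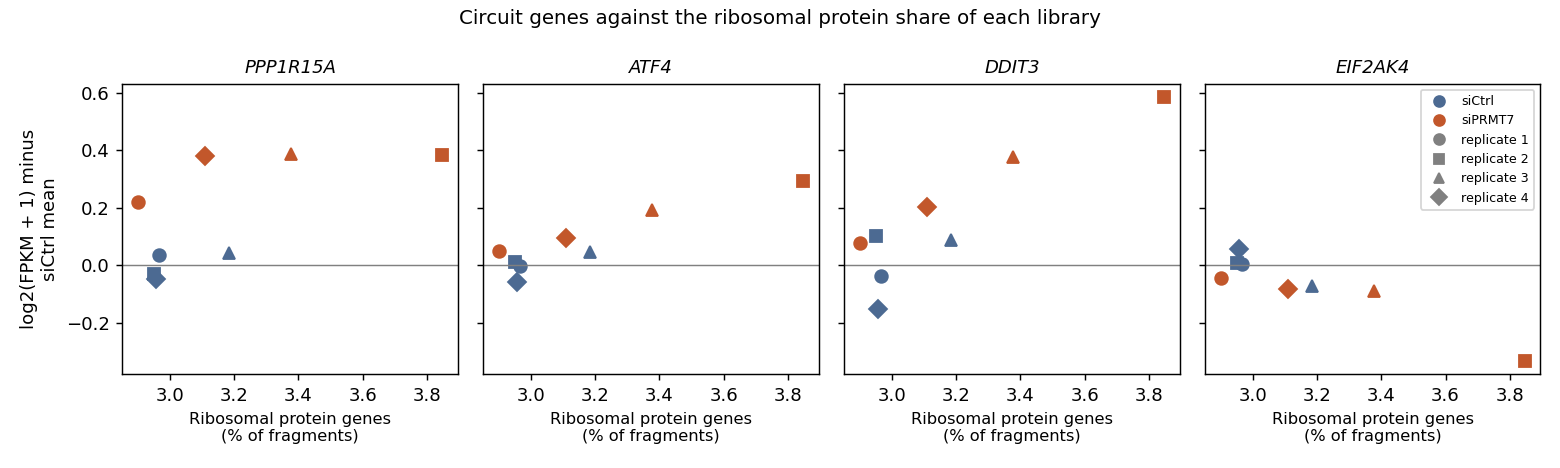
Difference of each library from the siCtrl mean in log2(FPKM + 1) against the share of its fragments in ribosomal protein genes (%), for PPP1R15A, ATF4, DDIT3 and EIF2AK4, with colours for the groups and symbols for the replicate number. DDIT3 and ATF4 are highest in siPRMT7 replicate 2, the library with 3.85%, whereas PPP1R15A is about equal in siPRMT7 replicates 2, 3 and 4.

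The factors on which the kinases and phosphatases act were divided. Of 18 genes of the eIF2 and eIF2B machinery 10 were higher and 8 lower, with 0 called and a median log2 difference of 0.0046, which turned to lower on the TPM scale, with quantile normalization, with the ribosomal protein covariate (-0.056), with weights per library (-0.028), and without siPRMT7 replicate 2 (-0.044) or siCtrl replicate 1 (-0.0060). EIF2B1, a subunit of the exchange factor that phosphorylated eIF2alpha inhibits, averaged 16.2 ± 0.520 FPKM with siCtrl and 18.2 ± 1.03 FPKM with siPRMT7, with no overlap (adjusted p = 0.270, limma). EIF2B5, the catalytic subunit of the same factor, had 11.9 ± 0.338 and 11.3 ± 0.165 FPKM, lower without overlap (adjusted p = 0.420, limma). Of the 18 genes 1 was thus higher and 1 lower without overlap, where 4.14% and 4.43% of all genes were. EIF2S3, the gamma subunit of eIF2, had 64.7 ± 2.16 and 60.3 ± 2.88 FPKM. The log2 difference was 0.15 for EIF1, which helps select the start codon, and -0.10 for EIF2A and -0.096 for BZW2, all with overlap. Of 13 regulators of the kinases, PKR included, 6 were higher and 7 lower, 0 were called and 0 were without overlap (median -0.046, or 0.018 without siPRMT7 replicate 1). Over all genes tested 49.5% were higher, 0.0149% were called and 8.57% were without overlap. DELE1, which carries the mitochondrial stress signal to HRI, had 9.88 ± 0.821 and 8.96 ± 0.139 FPKM. DNAJC3, an inhibitor of PKR and PERK, had 8.76 ± 0.995 and 7.99 ± 0.366 FPKM. The chaperone HSP90AA1 (log2 difference -0.089), its cochaperone CDC37 (0.090) and the RNA-binding PKR inhibitor TARBP2 (0.10) overlapped too.

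Other targets of the integrated stress response split. Of 34 listed genes 29 were tested, of which 19 were higher and 10 lower, with a median log2 difference of 0.051. Of these genes 0 were called, where 0.0149% of all genes were. The list median was 0.012 on the TPM scale, where that of all genes was -0.041. At an unadjusted limma p under 0.05, 7 passed as higher and 2 as lower, where 7.67% and 5.49% of all genes did. The groups did not overlap for 5 higher and 2 lower genes, where 4.14% and 4.43% of all genes did so. GADD45A, a regulator of growth arrest, averaged 141 ± 10.3 FPKM with siCtrl and 181 ± 23.2 FPKM with siPRMT7. ATF3, a stress-induced transcription factor, had 36.5 ± 1.43 and 43.2 ± 1.73 FPKM, with the smallest adjusted p of the list, 0.143 (limma). SLC3A2, the heavy chain of amino acid transporters, had 175 ± 6.45 and 210 ± 17.7 FPKM, and PMAIP1, which encodes the cell death protein NOXA, had 177 ± 8.56 and 214 ± 21.2 FPKM. For each of these 4 genes the groups did not overlap. NUPR1, a small chromatin protein induced by stress, had 13.3 ± 0.892 and 16.3 ± 1.57 FPKM and overlapped. In the other direction, CTH, which makes cysteine from cystathionine, had 19.1 ± 0.271 and 17.3 ± 0.426 FPKM, also without overlap (adjusted p = 0.217, limma).

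Genes of the unfolded protein response of the endoplasmic reticulum, outside the PERK branch, were divided as well. Of 22 tested 14 were higher and 8 lower, where 49.5% of all genes were higher. Of the 22 genes 0 were called, where 0.0149% of all genes were. The median was 0.027, which turned to lower on the TPM scale (-0.014), with quantile normalization (-0.0016) and with the ribosomal protein covariate (-0.011). SDF2L1, an endoplasmic reticulum chaperone component, averaged 29.99 ± 2.09 FPKM with siCtrl and 36.9 ± 5.37 FPKM with siPRMT7. MANF, a secreted stress protein, had 21.4 ± 1.21 and 26.1 ± 3.83 FPKM. Both were highest in siPRMT7 replicate 2, at 44.2 and 31.4 FPKM, and both overlapped between the groups. EDEM1, which directs misfolded glycoproteins to degradation, had 11.3 ± 0.351 and 10.5 ± 0.250 FPKM, lower without overlap. It was the 1 gene of the 22 without overlap, where 4.43% of all genes were lower without overlap. The log2 difference was -0.12 for ATF6, a stress sensor that becomes a transcription factor, -0.11 for SEL1L, a part of the degradation machinery, and 0.17 for CRELD2, all with overlap.

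Immediate early genes, which like PPP1R15A are induced within a short time by many stimuli, had the largest share of higher genes among the 6 lists. Of 28 listed genes 24 were tested, of which 21 were higher and 3 lower, with a median log2 difference of 0.12. Of these genes 0 were called, where 0.0149% of all genes were. The groups did not overlap for 11 of the 24, all higher, where 4.14% of all genes were higher without overlap. At an unadjusted limma p under 0.05, 13 passed, all higher, where 7.67% of all genes did. ZFP36, which destabilizes mRNA of cytokines, had 16.8, 17.6, 17.6 and 16.4 FPKM with siCtrl and 20.7, 20.3, 20.2 and 20.2 FPKM with siPRMT7. Its siPRMT7 libraries were nearly equal, replicate 1 included, and its adjusted p was 0.113 (limma). JUNB, a subunit of the transcription factor AP-1, had 82.7 ± 5.34 and 105 ± 9.34 FPKM. JUND and JUN, from the same family, had 71.6 ± 2.05 and 85.7 ± 6.53 FPKM, and 106 ± 4.00 and 124 ± 7.01 FPKM. GADD45B, a relative of GADD45A, had 51.1 ± 2.69 and 64.9 ± 7.18 FPKM, with 55.7 FPKM in siPRMT7 replicate 1 and 62.8 to 71.2 FPKM in the other 3. ATF3 stands in this list too. The mean of the list was 0.070, 0.18, 0.17 and 0.13 above the siCtrl mean in siPRMT7 replicates 1 to 4, and -0.058 to 0.022 in siCtrl libraries.

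**Figure D4:**
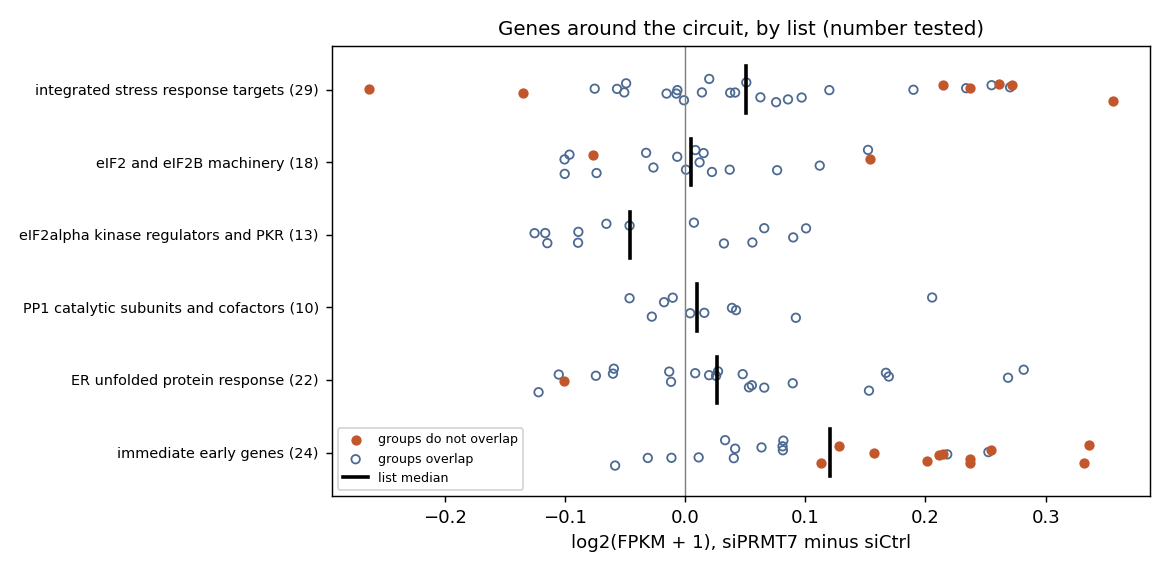
Difference in log2(FPKM + 1), siPRMT7 minus siCtrl, of each tested gene of 6 lists around the circuit, with filled points where the 4 siPRMT7 and 4 siCtrl libraries do not overlap, open points where they do, and a bar at each median. The median of the immediate early genes is at 0.12 and that of the integrated stress response targets at 0.051, and the other 4 medians lie between -0.046 and 0.027.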

How the data were processed

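Poly(A) RNA of 8 PC3 libraries was sequenced, and the authors deposited 1 table of FPKM values. Trimming with cutadapt 2.5, alignment software HISAT2 2.1.0, the counter featureCounts 1.6.3 and the mouse build mm10 are listed, per the submitters' processing notes. The table contradicts that build: all 58735 genes match GENCODE release 29 on human GRCh38 in start, end and strand. FPKM times gene length gave whole fragments for 100% of values above 0 (tolerance 0.01 fragments), from which library totals and counting errors were taken. These errors cover counting alone.

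The test was limma 3.58.1 (R 4.3.3; two-sided, variance trend, 4 against 4 libraries, no block) on log2(FPKM + 1). P-values were adjusted over 13436 genes, those reaching FPKM 1 in 4 or more libraries. PRMT7 was tested by exact permutation over 70 assignments (SciPy 1.17.1). The test was checked on simulated data. Genes were chosen with earlier results of these data known: the 10 circuit genes, 6 lists, up to 6 genes per list by smallest p, 3 neighbours in rank on each side and the 5 most alike genes over the 8 libraries, before and after group means were subtracted. Genes past the threshold were named too. Alternatives were other pseudocounts, filters, scalings and variance models, voom on rebuilt fragments, a replicate block, left-out libraries and, chosen after the data were seen, a ribosomal protein covariate.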

Additional observations from a re-analysis of the deposited data

Results flagged for a closer look

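In 4 of 48 groups of 4 libraries checked, 1 library lay far from the other 3 (Dixon's criterion on the gap to the nearest other library over the whole range, which chance meets in about 1 in 20 groups). PPP1R15A in siPRMT7 replicate 1 was 116 FPKM, below the other 3 siPRMT7 libraries by 0.960 of the range. Without that library the log2 difference of PPP1R15A was 0.38. In the same library the ratio of PPP1R15A to PPP1R15B was 3.82, by 0.845 of the range. The mean log2(FPKM + 1) of the immediate early genes in siCtrl replicate 4 was 5.05, the lowest of its group by 0.939 of the range. The summed level of the 4 eIF2alpha kinases in siCtrl replicate 1 was 76.7 FPKM, the highest of its group by 0.831 of the range, although the 4 siCtrl libraries spanned only 75.5 to 76.7 FPKM.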

How the results depend on the processing

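The 9 partners of PPP1R15A were called in none of the alternatives run: over 180 values, 160 had the reported direction and 20 the opposite one. The adjusted p (limma) ran from 0.118 to 0.595 for DDIT3 and from 0.131 to 0.602 for ATF4. PPP1R15A differed by 0.25 (log2) with quantile normalization, and by 0.33 to 0.38 when 1 library was left out. Opposite directions were found on the TPM scale for ATF5 (-0.0072), CHAC1 (-0.037) and EIF2AK3 (-0.028), with quantile normalization for ATF5 (-0.00073), TRIB3 (-0.010) and CHAC1 (-0.021), with library weights for EIF2AK3 (-0.021), and with the ribosomal protein covariate for PPP1R15B (0.037) and CHAC1 (-0.064). Without 1 library PPP1R15B ran from -0.052 to 0.017, CHAC1 from -0.028 to 0.054 and EIF2AK3 from -0.020 to 0.037. The TPM scale moved the median of all genes from -0.0015 to -0.041. Each gene difference and list median that turned to lower on that scale stayed above this median of all genes.

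Over all genes 2 were called as reported, 1 with a pseudocount of 0.1, with FPKM at least 5 or with quantile normalization, 5 with no filter, 12 with voom, 28 with the ribosomal protein covariate, 58 with library weights, and 0 to 2 without 1 library (0 without any siCtrl library or siPRMT7 replicate 1 or 3). At an unadjusted p under 0.05, 1166 to 2754 genes passed without 1 library. PRMT7 passed on the TPM scale (a difference of -2.14 TPM, exact permutation p = 0.0286), and without 1 library its difference ran from -0.529 to -0.297 FPKM.

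The median of the kinase regulators was -0.056 with a pseudocount of 0.1 or FPKM at least 5, -0.093 on the TPM scale, -0.023 with library weights, -0.059 with voom, -0.0025 with the ribosomal protein covariate and -0.073 to 0.018 without 1 library. With that covariate the eIF2 and eIF2B median was -0.056. On the TPM scale the stress response median was 0.012, where the median of all genes was -0.041. With FPKM at least 5 the immediate early median was 0.18. In rebuilt fragments, not per length, the PPP1R15A to PPP1R15B ratio differed by 0.598 in place of 1.01. The cause of these shifts was not tested.

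With a replicate block 0 genes were called, and the adjusted p (limma) was 0.370 for ATF4 and 0.306 for DDIT3. The labels do not say what a replicate number marks. Deviations of same-numbered libraries from their group means correlated over genes at -0.031, -0.013, 0.045 and 0.061. No siCtrl library correlated best with the siPRMT7 library of its own number. From the other side, siPRMT7 replicates 3 and 4 correlated best with the siCtrl library of the same number, and replicates 1 and 2 did not. With 4 libraries per group, these values cannot settle whether same-numbered libraries were prepared together. The paired sign-flip test of PRMT7 gave an exact p of 0.125, the smallest that 4 pairs allow.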

Other observations

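After each group's mean was subtracted, the genes that followed PPP1R15A most closely over the 8 libraries differed from those named by the undivided values. Among 7120 protein-coding genes the 5 highest were BET1L (r = 0.993), ACD (0.990), APLP2 (0.981), SLC25A6 (0.972) and SH3GL1 (0.971), and no test is attached. ACD, a shelterin protein of telomeres, had 7.93 to 9.51 FPKM in siCtrl and 7.22 to 9.56 FPKM in siPRMT7 libraries, with a log2 difference of 0.031. APLP2, a relative of the amyloid precursor protein, had 187 ± 4.71 and 185 ± 6.23 FPKM (SD, n = 4 each). Within the circuit, CHAC1 (r = 0.918) and TRIB3 (0.863) followed PPP1R15A in this way, and PPP1R15B ran against it (-0.857). The r was 0.728 for ATF5, 0.673 for ATF4 and 0.636 for DDIT3. It was -0.522 for EIF2AK4, -0.161 for EIF2AK1 and -0.055 for EIF2AK3. PPP1R15A lay furthest from its group mean in siPRMT7 replicate 1, so all these r lean on that library. CHAC1 and TRIB3 thus followed the deviations of PPP1R15A inside the groups while their group means differed by 0.0033 and 0.063 on the log2 scale, against 0.34 for PPP1R15A.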
